A study of Mus musculus with 6 samples.

Results

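Glutathione is the main small thiol of animal cells, and the 10 genes described here make it, recycle it or use it. They were chosen by name from the annotation, with earlier results of these data already known. Gclc, Gclm and Gss serve synthesis, Slc7a11 cystine uptake and Gsr recycling. Gpx1 and Gpx4 serve peroxide reduction, and Mgst1, Gsto1 and Gstm1 serve the transfer of glutathione to other molecules. All 10 were found among 55335 gene identifiers, and 9 of them were among the 11270 genes that were tested, those averaging 1 FPKM or more over all libraries. FPKM counts sequenced fragments per length of transcript and per total of the library, as the authors computed it. RNA came from RAW 264.7 cells, a wild-type mouse macrophage line transformed by a leukaemia virus, in 3 libraries with LPS plus ultrasound and 3 libraries with LPS alone. Cells of both groups received lipopolysaccharide (LPS), a bacterial cell wall component sensed through TLR4, at 200 ng/ml for 8 h. Within that period the LPS plus ultrasound cells were also exposed for 10 min to pulsed ultrasound at 50 mW/cm² and 1 MHz, with 20% duty cycle and 200 µs pulses repeated at 1 kHz. The comparison asks how low-intensity ultrasound alters RNA levels in macrophages that respond to LPS. No comparison with resting cells was possible, since cells without LPS were not analysed here.

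Glutathione is built from glutamate, cysteine and glycine. Glutamate-cysteine ligase, made of the catalytic subunit GCLC and the modifier subunit GCLM, joins glutamate to cysteine, and glutathione synthetase adds glycine. Cysteine is often the limiting supply, and the transporter xCT, encoded by Slc7a11, imports its oxidised form cystine in exchange for glutamate. Glutathione peroxidases and transferases consume glutathione, and glutathione reductase restores the oxidised form with NADPH. In macrophages this system limits damage by the oxidants that the cells themselves release, and many of its genes are known targets of the transcription factor NRF2, while Slc7a11 is also a known target of ATF4.

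A pair of promoters is shown because Gclm and Slc7a11 are textbook targets of NRF2 and ATF4, and the regulators of both are given further on. They are taken from RefSeq on GRCm38.p6 and run from 250 bases before to 50 bases after the annotated start, with motif matches in capitals. The Slc7a11 promoter (chr3:50443564-50443863, minus strand) holds 2 matches to the amino acid response core TGATGNAA, in opposite orientations, whose first bases lie 66 and 47 bases before the start. The Gclm promoter (chr3:122245307-122245606, plus strand) holds 1 match to the antioxidant response core TGACNNNGC, on the opposite strand, whose first base lies 134 bases before the start.
Slc7a11 promoter: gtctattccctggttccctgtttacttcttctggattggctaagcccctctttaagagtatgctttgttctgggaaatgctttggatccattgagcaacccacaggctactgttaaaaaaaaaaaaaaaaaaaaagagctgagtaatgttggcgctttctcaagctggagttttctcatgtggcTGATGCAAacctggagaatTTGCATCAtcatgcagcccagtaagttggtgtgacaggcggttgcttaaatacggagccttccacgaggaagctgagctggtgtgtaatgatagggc
Gclm promoter: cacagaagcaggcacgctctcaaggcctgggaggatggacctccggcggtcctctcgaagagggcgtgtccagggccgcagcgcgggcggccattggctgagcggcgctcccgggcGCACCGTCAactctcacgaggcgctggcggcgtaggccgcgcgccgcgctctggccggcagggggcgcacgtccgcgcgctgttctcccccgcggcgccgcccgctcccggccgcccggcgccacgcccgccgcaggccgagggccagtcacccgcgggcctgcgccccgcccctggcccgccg
Both motifs were searched on both strands of 32851 RefSeq promoters of this length. TGATGNAA was present in 3.97% of them and TGACNNNGC in 12.4%. Of the members, 8 had 13 promoters in the table, while Gclc and Gsr had none there and were not searched. TGATGNAA matched 1 of these 13, that of Slc7a11, and TGACNNNGC matched 2, those of Gclm and of 1 start of Mgst1. A match is a run of letters and does not show that a factor binds there.

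Gpx1 and Gpx4 are shown for the feature that sets them apart among the 10 members: they encode selenoproteins, in which an in-frame UGA codon is read as selenocysteine, the residue that reduces peroxides. The GENCODE M21 annotation marks such a codon in 2 of the 10 members. Each stretch below runs from 30 coding bases before the TGA, given in capitals, to 30 after it, in the transcripts Gpx1-201 and Gpx4-201.
Gpx1 codon 47 and flanks: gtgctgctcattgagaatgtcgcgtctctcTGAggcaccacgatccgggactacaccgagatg
Gpx4 codon 129 and flanks: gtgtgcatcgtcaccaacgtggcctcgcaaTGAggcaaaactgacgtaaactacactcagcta
The stretches are identical at 35 of 63 positions.

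Markers matched the labelled cell type. All 11 macrophage genes averaged more than 1 FPKM, and their summed level was 3370 to 3580 FPKM with LPS plus ultrasound and 3200 to 3450 FPKM with LPS. None of the 11 skeletal muscle markers reached 1 FPKM, the highest being Mylpf at 0.587 FPKM, although the extraction text in the labels describes rat muscle. The fibroblast, endothelial, hepatocyte, neutrophil, T cell, B cell and erythroid lists also held no marker at 1 FPKM, and 2 of 5 dendritic cell markers, Itgax and Ccr7, did. The deposited FPKM summed to 278871 to 292200 per library. LPS library 2 stood apart on principal component 1, at 28.8 against -13.9, -0.957 and -17.7 for the ultrasound libraries and 1.73 and 2.03 for LPS libraries 1 and 3. It held the lowest value of 5 of the 10 members. Whether the libraries came from separate cultures is not stated in the labels, so the spread behind each p-value may be technical only.

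Per length of transcript, the peroxidase gene Gpx4 was the most abundant member, with a mean of 61.9 FPKM over the 6 libraries, followed by the reductase gene Gsr at 53.7 and Gpx1 at 42.2 FPKM. Slc7a11 at 25.0, Gclc at 19.6 and Gsto1 at 15.1 FPKM formed the middle of the order. Gss at 6.37, Gstm1 at 5.63 and Gclm at 5.22 FPKM were lower, and Mgst1 was near the floor at 0.127 FPKM. The ranges over the 6 libraries did not overlap between Gpx1 and Slc7a11, between Gsto1 and Gss, and between Gclm and Mgst1. Every other neighbouring pair in this order overlapped in range. Within libraries, Gsr exceeded Gpx1, Gpx1 exceeded Slc7a11 and Slc7a11 exceeded Gclc in 6 of 6. Gss, Gstm1 and Gclm exchanged places from library to library.

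None of the 9 tested members passed the threshold between LPS plus ultrasound and LPS (limma with Benjamini-Hochberg adjusted p from 0.22 to 0.98, over all tested genes). Among all tested genes 2, or 0.0177%, passed. With the replicate number as a block 13 genes, or 0.115%, passed and still 0 members, with adjusted p from 0.062 to 0.96. With the unadjusted limma p under 0.05, 3 of the 9 tested members (33.3%), Gclc, Gpx1 and Gsr, were higher with ultrasound and 0 were lower, where 6.18% of all tested genes were higher and 9.16% lower. This count was 1 without LPS library 1 or without ultrasound library 3, where only Gclc was left, and 2 or 3 without any other single library. With single libraries left out, 3.38% to 7.59% of all tested genes were higher. With the block the count of members was 4, Gstm1 being added, against 12.6% of all tested genes higher and 17.1% lower. Groups did not overlap, with all ultrasound libraries above all LPS libraries, for 3 of 9 tested members, Gclc, Gsr and Gstm1, against 9.8% of all tested genes. The fitted differences were above 0 for 9 of 9 tested members, or 8 with equal FPKM sums or quantile normalization, where Gpx4 turned, and their median was 0.15, against -0.017 over all tested genes, of which 46.1% were above 0. With only 9 members these counts are small, and without LPS library 1 the count above 0 was 6. The members were chosen with earlier results of these data known, so their shares are no independent test. Differences given below are those of log2(FPKM + 1), with LPS subtracted from LPS plus ultrasound, and carry their standard error. Adding 1 makes the difference of a low gene smaller than its fold.

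**Figure D1:**
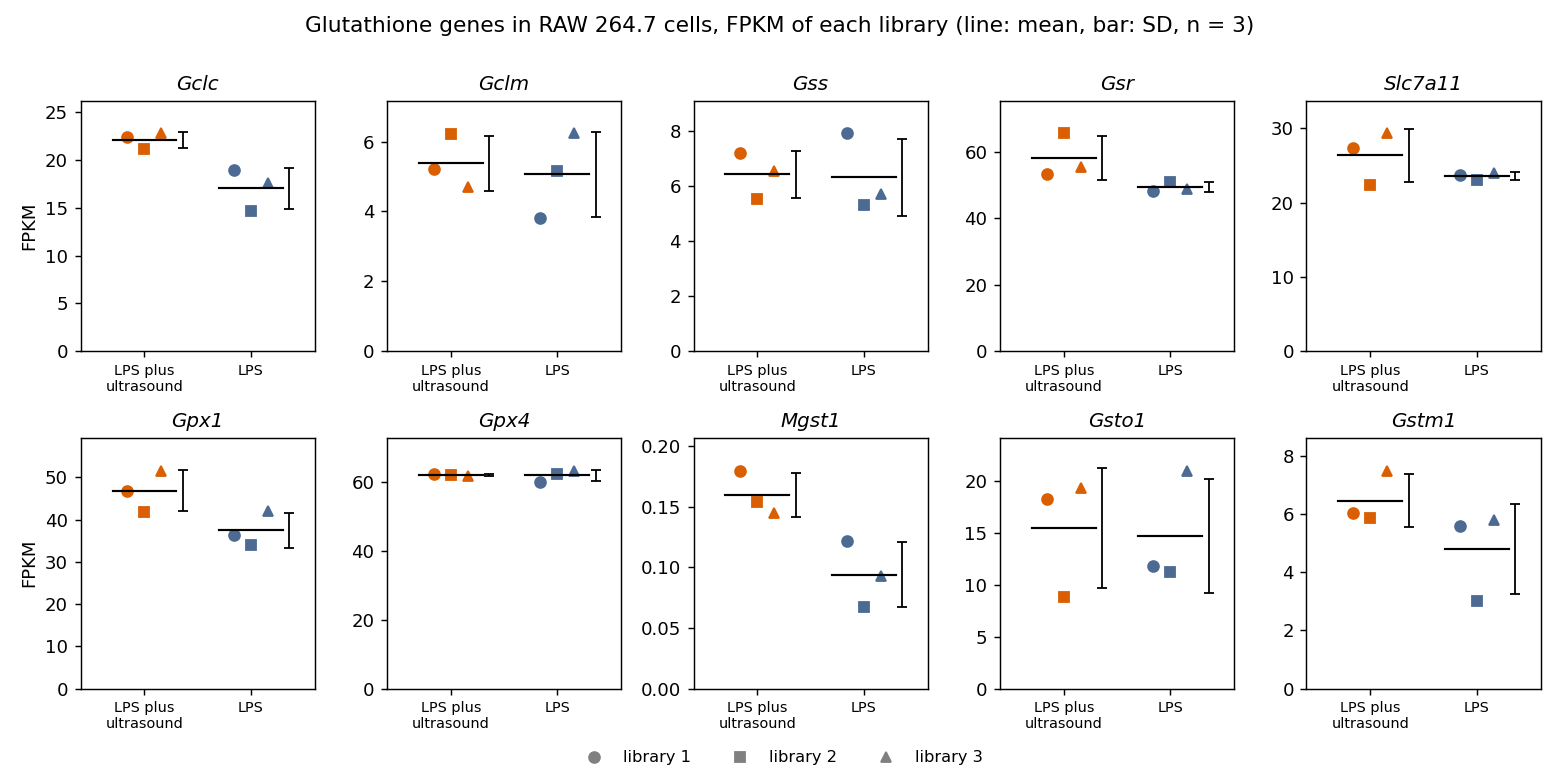
FPKM of each of the 10 glutathione genes in the 6 libraries, with the ultrasound libraries on the left of each panel and the LPS libraries on the right (line: mean, bar: SD, n = 3 per group). The groups are apart for Gclc, Gsr, Gstm1 and the barely measured Mgst1, while Gpx4 lies between 59.95 and 63.2 FPKM in every library.

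Among the synthesis genes, the catalytic ligase subunit gene Gclc was apart between the groups, and the genes for the modifier subunit and for the synthetase were not. Gclc (ENSMUSG00000032350) had 22.4, 21.2 and 22.8 FPKM with LPS plus ultrasound, against 18.9, 14.7 and 17.6 FPKM with LPS. The lowest ultrasound library lay above the highest LPS library, and LPS library 2 was the lowest of all. The means were 22.1 ± 0.837 FPKM with LPS plus ultrasound and 17.0 ± 2.16 FPKM with LPS (SD, n = 3 each), a ratio of 1.30. The difference was 0.36 ± 0.10 (95% interval 0.12 to 0.60, Benjamini-Hochberg adjusted p = 0.22, limma). Without LPS library 2 it was 0.27. Gclc had the smallest unadjusted p of the members and did not pass after adjustment. Its unadjusted p stayed below 0.05 with each of the 6 libraries left out in turn.

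Gclm, the modifier subunit gene, had 5.21, 6.23 and 4.70 FPKM with LPS plus ultrasound, against 3.81, 5.16 and 6.24 FPKM with LPS. The groups overlapped throughout, and the lowest and the highest value both belonged to LPS libraries. The difference was 0.08 ± 0.17, with a 95% interval of -0.31 to 0.48 (Benjamini-Hochberg adjusted p = 0.83, limma). It turned to -0.009 without ultrasound library 2 and to -0.07 without LPS library 1. Of its 6349 distinct 50-base stretches in the GENCODE M21 transcripts, 4.58% also occur in other genes, among them the abundant cyclophilin gene Ppia at a mean of 163 FPKM. The part of such shared sequence in the Gclm values was not tested.

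The ratio of Gclm to Gclc, which does not depend on how a library was scaled, was 0.233, 0.294 and 0.206 with LPS plus ultrasound, against 0.201, 0.352 and 0.355 with LPS. Both groups held values near 0.2, and the 2 highest ratios were those of LPS libraries 2 and 3. The means were 0.244 ± 0.0451 with LPS plus ultrasound and 0.303 ± 0.0878 with LPS (SD, n = 3 each), and the log2 ratios did not differ beyond their spread (-0.28, two-sided exact permutation p = 0.40, also 0.40 after Benjamini-Hochberg adjustment over the 2 ratios computed). With 3 unpaired libraries per group this test cannot go below 0.10. With libraries paired by number, the exact permutation p was 0.50.

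Gss, the glutathione synthetase gene, had 7.195, 5.53 and 6.54 FPKM with LPS plus ultrasound, against 7.92, 5.33 and 5.72 FPKM with LPS. In both groups library 1 was the highest and library 2 the lowest. The difference was 0.03 ± 0.15, with a 95% interval of -0.33 to 0.39 (Benjamini-Hochberg adjusted p = 0.94, limma), and it turned to -0.07 without LPS library 2, -0.04 without ultrasound library 1 and -0.02 without LPS library 3. Some 10.3% of the 50-base stretches of Gss occur in its neighbours Acss2, Gssos1 and Gssos2, which had means of 0.731, 0.018 and 0.0483 FPKM.

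Slc7a11, the cystine transporter gene, had 27.3, 22.4 and 29.4 FPKM with LPS plus ultrasound, against 23.7, 23.0 and 24.0 FPKM with LPS. Ultrasound libraries 1 and 3 were above every LPS library, and ultrasound library 2 was below them all. The LPS values spread little, with an SD of 0.519 FPKM around 23.6 FPKM, while the SD with LPS plus ultrasound was 3.59 FPKM around 26.4 FPKM. The difference was 0.15 ± 0.11 (95% interval -0.10 to 0.39, Benjamini-Hochberg adjusted p = 0.52, limma). Without ultrasound library 2 it was 0.26 and without ultrasound library 3 it was 0.07.

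Slc3a2 encodes the heavy chain that carries xCT to the cell surface. It had 131.1, 102.5 and 138.3 FPKM with LPS plus ultrasound, against 118.8, 118.7 and 141.7 FPKM with LPS, and the groups overlapped (difference -0.03 ± 0.13, Benjamini-Hochberg adjusted p = 0.92, limma). Within libraries the ratio of Slc7a11 to Slc3a2 was 0.209, 0.218 and 0.212 with LPS plus ultrasound, against 0.199, 0.194 and 0.170 with LPS. All 3 ultrasound ratios were above all 3 LPS ratios. The difference of the log2 ratios was 0.19, with a two-sided exact permutation p of 0.10, or 0.20 after adjustment over the 2 ratios. Without pairing, 0.10 is the smallest p that 3 against 3 libraries can give. With libraries paired by number, the exact permutation p was 0.25.

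**Figure D2:**
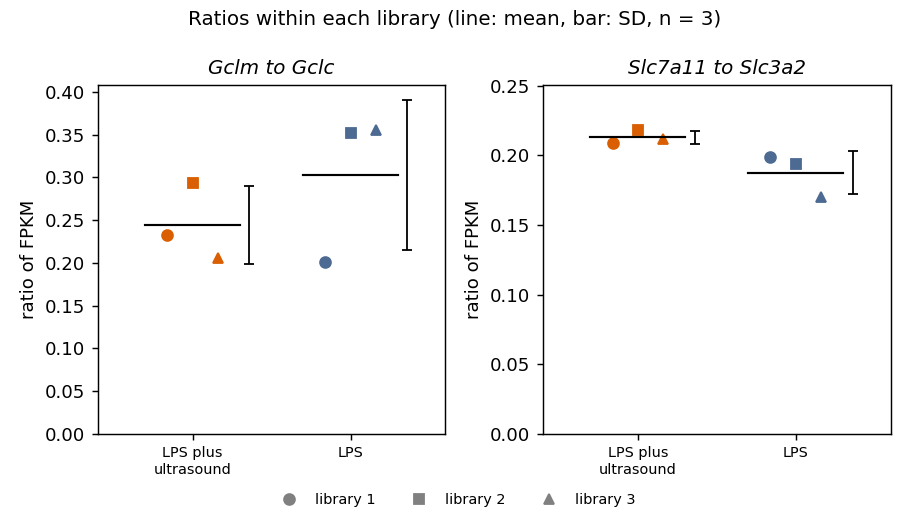
Ratio of FPKM within each library for the pair of ligase subunits (left) and for the light and heavy chains of the cystine transporter (right), ultrasound libraries left of LPS libraries, with mean and SD (n = 3 per group). The Gclm to Gclc ratios overlap, at 0.206 to 0.294 with LPS plus ultrasound and 0.201 to 0.355 with LPS. The Slc7a11 to Slc3a2 ratios are 0.209 to 0.218 with LPS plus ultrasound and 0.170 to 0.199 with LPS.

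Gsr, the glutathione reductase gene, was higher in each ultrasound library than in any LPS library. It had 53.4, 65.5 and 55.3 FPKM with LPS plus ultrasound, against 48.2, 51.0 and 48.7 FPKM with LPS. The LPS libraries lay close together, and ultrasound library 2 was the highest by far. The means were 58.1 ± 6.54 FPKM with LPS plus ultrasound and 49.3 ± 1.5 FPKM with LPS (SD, n = 3 each), a ratio of 1.18. The difference was 0.23 ± 0.09 (95% interval 0.013 to 0.44, Benjamini-Hochberg adjusted p = 0.31, limma). Without ultrasound library 2 it was 0.14. The unadjusted p was above 0.05 without ultrasound library 2 or 3 or LPS library 1 or 3.

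The peroxidase genes differed in pattern: Gpx1 had a higher mean with LPS plus ultrasound, with overlapping groups, and Gpx4 was nearly constant. GPX1 reduces hydrogen peroxide in the cytosol and mitochondria, and GPX4 reduces lipid hydroperoxides in membranes and is the main guard against ferroptosis. Gpx1 had 46.9, 41.9 and 51.6 FPKM with LPS plus ultrasound, against 36.3, 34.1 and 42.1 FPKM with LPS. The groups overlapped at a single point, since ultrasound library 2 lay just below LPS library 3. The means were 46.8 ± 4.85 FPKM with LPS plus ultrasound and 37.5 ± 4.12 FPKM with LPS (SD, n = 3 each), a ratio of 1.25. The difference was 0.31 ± 0.11 (95% interval 0.06 to 0.57, Benjamini-Hochberg adjusted p = 0.26, limma). Without LPS library 2 it was 0.25. The unadjusted p was above 0.05 without ultrasound library 1 or 3 or LPS library 1 or 2.

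Gpx4 had 62.2, 61.97 and 61.8 FPKM with LPS plus ultrasound, against 59.95, 62.2 and 63.2 FPKM with LPS. The ultrasound values lay inside the range of the LPS values. The difference was 0.0045 ± 0.06, with a 95% interval of -0.14 to 0.15 (Benjamini-Hochberg adjusted p = 0.98, limma), and its sign changed with the scaling of the libraries. Of the 50-base stretches of Gpx4, 34.7% also occur in the pseudogene Gpx4-ps2, which was listed at 18.2, 17.4 and 16.6 FPKM with LPS plus ultrasound, against 16.2, 14.8 and 16.5 FPKM with LPS. Reads may have been divided between the gene and this copy in a way the files do not show, so the level of Gpx4 is uncertain.

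Of the 3 transferase genes, Gstm1 was higher in all ultrasound libraries by a narrow gap, Gsto1 varied widely without regard to group, and Mgst1 was barely detected. GSTM1 is a cytosolic enzyme that conjugates glutathione to electrophiles. Gstm1 had 6.03, 5.86 and 7.49 FPKM with LPS plus ultrasound, against 5.59, 3.00 and 5.81 FPKM with LPS. LPS library 2 stood well below the others, and between the remaining libraries the groups nearly touched, at 5.86 FPKM with LPS plus ultrasound and 5.81 FPKM with LPS. The difference was 0.40 ± 0.21 (95% interval -0.10 to 0.90, Benjamini-Hochberg adjusted p = 0.40, limma), the largest among the members, and without LPS library 2 it was 0.15. Stretches of 50 bases shared with other genes made up 18.9% of Gstm1, mostly with the pseudogene Gstm2-ps1, which was listed at a mean of 0.0123 FPKM.

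GSTO1 is a cytosolic transferase that removes glutathione from proteins and reduces dehydroascorbate. Gsto1 had 18.3, 8.85 and 19.3 FPKM with LPS plus ultrasound, against 11.9, 11.3 and 21.01 FPKM with LPS. The values fell around 2 levels that both groups shared: ultrasound libraries 1 and 3 and LPS library 3 were high, and the other 3 were low. The highest value was 2.37 times the lowest. The difference was 0.05 ± 0.33, the largest standard error among the tested members, with a 95% interval of -0.72 to 0.82 (Benjamini-Hochberg adjusted p = 0.96, limma). None of its 50-base stretches occurs in another annotated gene.

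MGST1 is a membrane-bound transferase with peroxidase activity. Mgst1 was listed at 0.180, 0.154 and 0.145 FPKM with LPS plus ultrasound, against 0.121, 0.0675 and 0.0928 FPKM with LPS. All ultrasound values were above all LPS values, but the level was too low for the test in every library, and no fold is given.

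**Figure D3:**
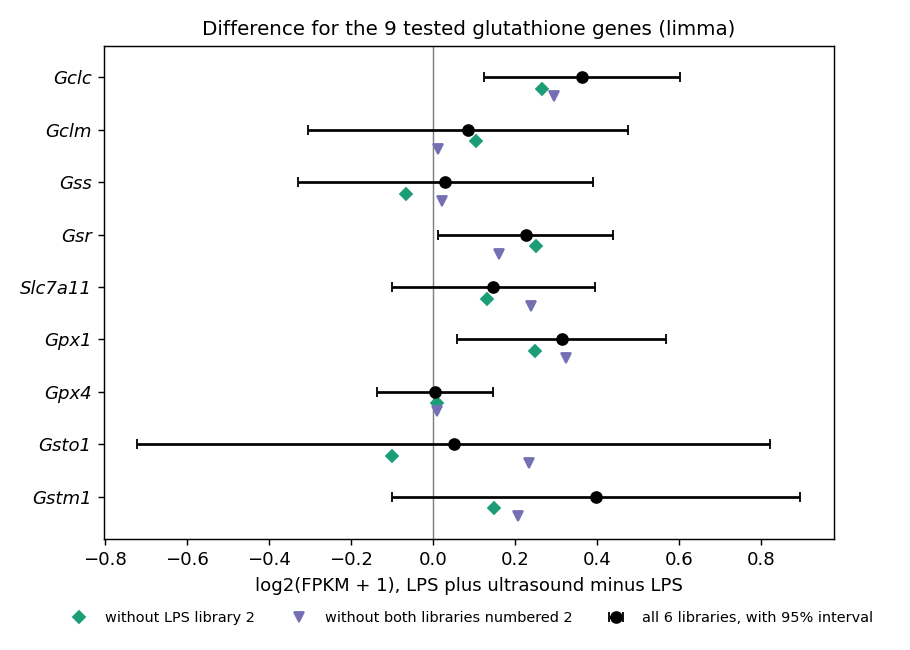
Difference in log2(FPKM + 1), LPS plus ultrasound minus LPS, for the 9 tested genes with 95% intervals from limma (black), and the same without LPS library 2 (diamonds) or without both libraries numbered 2 (triangles). The intervals of Gclc, Gsr and Gpx1 lie above 0, none of these passed after adjustment, and the value of Gstm1 moves from 0.40 to 0.15 without LPS library 2.

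Profiles close to those of Gclm and Slc7a11 were sought over the 6 libraries, as the root mean square difference of log2(FPKM + 1) after centring each gene. The tested genes nearest to Gclm were Cd48 (0.083), Rsf1 (0.0834) and Gm20005 (0.0871), against a standard deviation of 0.22 for Gclm itself. Those nearest to Slc7a11 were Ap3s1-ps1 (0.0323), Gpbp1 (0.042) and Egln1 (0.0437), against 0.15 for Slc7a11. With only 6 libraries many genes lie close to any profile.

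Among 98 other genes of the pathway, 97 were in the files and 68 were tested, and 0 of these passed the threshold (limma with Benjamini-Hochberg adjustment over all tested genes). Of the 68, 5 were higher and 8 lower with ultrasound by the unadjusted limma p under 0.05, and groups did not overlap for 5 higher and 8 lower. Both counts come to 7.35% higher and 11.8% lower, where 6.18% and 9.16% of all tested genes were higher and lower by that p, and 9.8% and 13.4% did not overlap. With the replicate block 10 were higher and 11 lower by the unadjusted p, where 12.6% and 17.1% of all tested genes were. With single libraries left out 2 to 6 were higher and 5 to 10 lower. The shares of all tested genes were then 3.38% to 7.59% higher and 5.6% to 10.1% lower. The median difference of the 68 was 0.012, against -0.017 over all tested genes.

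Many peroxidase and transferase genes outside the members were below 1 FPKM. Of the 6 other glutathione peroxidase genes none was tested, Gpx3 being the highest at 0.849 FPKM and Gpx2, Gpx5, Gpx6 and Gpx8 being listed at 0 in every library. The peroxiredoxin gene Prdx6, whose product also uses glutathione, had 41.8 ± 2.20 FPKM with LPS plus ultrasound and 39.9 ± 1.42 FPKM with LPS (SD, n = 3 each). Of the 22 other cytosolic transferase genes and relatives found, 11 were tested, and the alpha class and the mu class genes other than Gstm1 and Gstm4 were below 1 FPKM. Gstt4 and Gstz1 were lower in each ultrasound library than in any LPS library, with differences of -0.38 ± 0.12 and -0.34 ± 0.13, and Gstt1, at 0.37 ± 0.22, overlapped (Benjamini-Hochberg adjusted p = 0.23, 0.29 and 0.44, limma). Of the 11 tested genes 2 (18.2%) were thus apart and lower and 0 apart and higher, against 13.4% and 9.8% of all tested genes. Gstt4 and Gstz1 were low, at means of 2.08 and 1.82 FPKM over the 6 libraries. Gstz1 was at -0.22 without ultrasound library 3, and Gstt1 at 0.18 without ultrasound library 3 and 0.57 without LPS library 3. Of the MAPEG family of membrane proteins, to which Mgst1 belongs, the 5-lipoxygenase-activating protein gene Alox5ap had a difference of 0.43 ± 0.17, Mgst3 of 0.13 ± 0.09 and the leukotriene C4 synthase gene Ltc4s of -0.26 ± 0.19, and none passed. Alox5ap was at 0.27 without LPS library 2. Without ultrasound library 2 Mgst3 was at 0.06 and Ltc4s at -0.06, and Ltc4s was at -0.41 without ultrasound library 3 and -0.16 without LPS library 3.

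In the supply of cysteine and glutamate, Mat2a and Cth were apart between the groups in opposite directions. Mat2a, which encodes the methionine adenosyltransferase subunit that makes S-adenosylmethionine, had 22.8, 19.9 and 22.7 FPKM with LPS plus ultrasound, against 15.0, 11.1 and 13.1 FPKM with LPS. The difference was 0.70 ± 0.12 (Benjamini-Hochberg adjusted p = 0.13, limma). Cth, whose product cystathionine gamma-lyase releases cysteine, had 7.39, 8.02 and 6.53 FPKM with LPS plus ultrasound, against 10.1, 15.96 and 9.39 FPKM with LPS. LPS library 2 was again the outermost value in each gene, and the groups were apart without it. The difference for Cth was -0.59 ± 0.19 (Benjamini-Hochberg adjusted p = 0.24, limma), and -0.37 without LPS library 2. The glutamate dehydrogenase gene Glud1, with a difference of 0.13 ± 0.06, was higher in each ultrasound library than in any LPS library and did not pass. Of the 9 tested genes in this list, 1 was higher and 1 lower at an unadjusted limma p below 0.05, where 6.18% of all tested genes were higher and 9.16% lower.

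Genes of glutathione breakdown included 3 of 7 tested that were lower at an unadjusted limma p below 0.05, none that was higher, and a median difference of -0.21. Over all tested genes 9.16% were lower and 6.18% higher at that level, and with 7 genes the count is small. These were the aminopeptidase genes Anpep and Lap3, which split the dipeptide left when glutathione is cleaved, and Ggt7, a member of the gamma-glutamyltransferase family. Their differences were -0.43 ± 0.12, -0.41 ± 0.13 and -0.29 ± 0.10 (Benjamini-Hochberg adjusted p = 0.22, 0.24 and 0.26, limma). LPS library 2 held the highest value of each gene, and without it the differences were -0.30, -0.29 and -0.22. The unadjusted limma p of Ggt7 was above 0.05 without LPS library 2 or ultrasound library 1 or 3. Those of Anpep and Lap3 stayed below 0.05 with each single library left out. Every ultrasound library lay below every LPS library for all 3 genes, as for 13.4% of all tested genes. The 3 were picked by p from the same libraries, so this is no separate evidence.

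The glutaredoxin and glyoxalase list held 0 of 8 tested genes at an unadjusted limma p below 0.05. Its smallest p belonged to Glrx3, Esd and Glo1, whose differences were -0.09 ± 0.07, 0.13 ± 0.10 and 0.09 ± 0.09, that of Esd being 0.04 without ultrasound library 2 and 0.08 without LPS library 1. In the transport list 2 of 9 tested genes were higher and 0 lower at that level, against 6.18% and 9.16% of all tested genes. These were the ABC transporter genes Abcc3 (0.31 ± 0.11) and Abcb6 (0.22 ± 0.09), both apart between the groups, and Abcc5 had -0.19 ± 0.10 (Benjamini-Hochberg adjusted p = 0.27, 0.31 and 0.40, limma). Abcc5 was at -0.11 without ultrasound library 3. Among 9 tested genes of selenoprotein synthesis, on which the Gpx1 and Gpx4 proteins depend, 1 was lower and 0 higher, against the same 9.16% and 6.18%. This was Pstk, the kinase gene for the selenocysteine tRNA, at -0.29 ± 0.10, while Eefsec and Scly had -0.26 ± 0.19 and -0.13 ± 0.09 (Benjamini-Hochberg adjusted p = 0.26, 0.53 and 0.54, limma). Without LPS library 2 Eefsec was at -0.10 and Scly at -0.05, and without ultrasound library 3 they were at -0.13 and -0.07.

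Among the regulators, Nfe2l2, which encodes NRF2, had 42.7, 38.9 and 48.7 FPKM with LPS plus ultrasound, against 40.2, 36.8 and 48.8 FPKM with LPS. The groups overlapped, and library 3 was the highest in both. Its difference was 0.05 ± 0.13, and that of Keap1, the gene for the protein that holds NRF2 inactive, was also 0.05 ± 0.08 (adjusted p = 0.86 and 0.77 in limma with Benjamini-Hochberg adjustment). Bach1, which encodes a repressor at NRF2 target sites, had 20.1, 17.7 and 20.8 FPKM with LPS plus ultrasound, against 17.8, 12.9 and 13.9 FPKM with LPS. Its groups overlapped only between ultrasound library 2 and LPS library 1 (difference 0.38 ± 0.13, Benjamini-Hochberg adjusted p = 0.25, limma). LPS library 2 held its lowest value, and the difference was 0.29 without that library and 0.51 without LPS library 1. Its unadjusted limma p was above 0.05 without ultrasound library 1 or 3 or LPS library 2 or 3. Maff, a small MAF partner gene, had a difference of 0.58 ± 0.35 and overlapping groups (Benjamini-Hochberg adjusted p = 0.46, limma). It was at 0.18 without LPS library 3 and 0.87 without LPS library 1.

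Atf3, a stress-induced transcription factor gene, had the largest difference in the pathway lists, at 72.9, 83.2 and 68.7 FPKM with LPS plus ultrasound, against 125.4, 216.6 and 118.1 FPKM with LPS. Every ultrasound library was below every LPS library, and LPS library 2 was far above the rest. The difference was -0.97 ± 0.22 (Benjamini-Hochberg adjusted p = 0.18, limma). Without LPS library 2 it was -0.70. Atf4, whose product binds the core marked in the Slc7a11 promoter and which is named here after its values were seen, had 160.7, 150.9 and 160.8 FPKM with LPS plus ultrasound, against 163.5, 232.6 and 157.2 FPKM with LPS. Here LPS library 2 alone stood apart. In RNA of whole cultures, fewer expressing cells and less RNA per cell cannot be told apart.

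**Figure D4:**
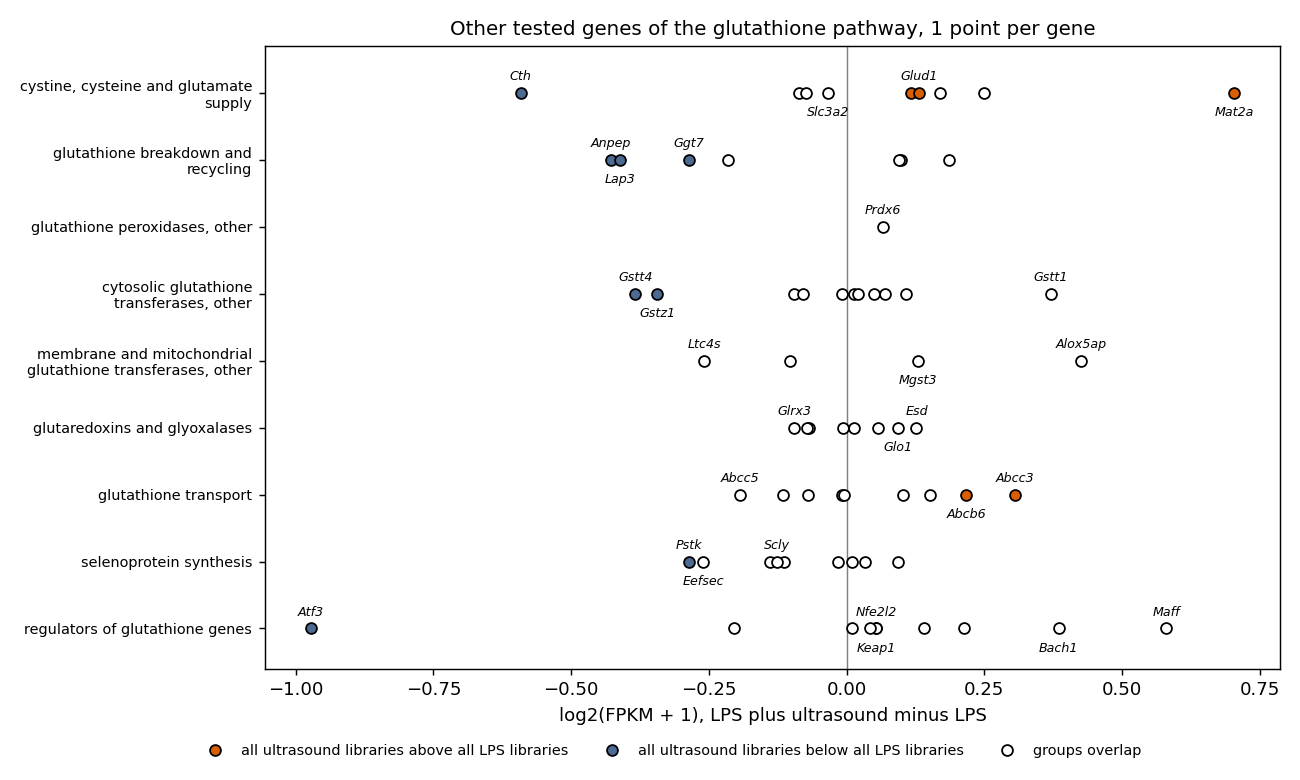
Difference in log2(FPKM + 1), LPS plus ultrasound minus LPS, for the 68 other tested genes of the glutathione pathway, by list, with the named genes labelled. Filled points mark genes whose groups did not overlap, 5 higher (7.35%) and 8 lower (11.8%), against 9.8% and 13.4% of all tested genes. The outermost are Mat2a at 0.70 and Atf3 at -0.97.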

How the data were processed

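Poly(A) RNA was read from both fragment ends on an Illumina sequencer, per the labels. The authors deposited FPKM, fragments scaled to transcript length and library; for the aligner, counter, annotation and strand setting, the sources used here give no name. A rat build, mRatBN7.2, appears in the submitters' processing notes, while all identifiers are mouse Ensembl ones, so the values were read as mouse. Low values of genes with 1 transcript were whole multiples of a step, within 0.05 of it, in 27.1 to 28.4%. No counts were recovered, and depth is unknown. The check used full annotated transcript lengths, so it cannot show that counts were beyond recovery. Columns were mapped by the initial and number of the titles, and identifiers named from GENCODE M21 (55154 of 55335).

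The test was limma 3.58.1 (R 4.3.3) on log2(FPKM + 1), trended and robust, two-sided, with Benjamini-Hochberg adjustment over the 11270 genes that averaged 1 FPKM or more, at a threshold of 0.05. The code was tested on simulated data. Same-numbered libraries deviated together (r = 0.18, 0.44 and 0.41 across genes), so the numbers, from the titles, were taken to pair them in an alternative, the block. The main fit, with its differences, intervals and p, left the libraries unpaired. Ratios were compared by exact permutation, unpaired unless stated. Other pathway genes were named if they passed or were among the 3 smallest p of their list, besides Slc3a2, Nfe2l2, Keap1, Bach1 and the nearest profiles. Members and lists were chosen with earlier results of these data known. Alternatives were the pseudocount, filter, scaling, moderation, weights, threshold, block and libraries left out. Figures used matplotlib 3.10.9.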

Additional observations from a re-analysis of the deposited data

How the results depend on the processing

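No member passed under any alternative, and the lowest adjusted p of a member was 0.061 with sample weights and 0.062 with the replicate block. The count of genes past the threshold, 2, became 1 with a filter at 5 FPKM, 5 with equal FPKM sums, 223 with sample weights, 8 at a threshold of 0.1, 13 with the replicate block, 6 without both libraries numbered 2, and 2 to 8 with single libraries left out (8 without LPS library 2, and 4 without LPS library 1 or 3). The block changed no other call at the adjusted threshold. By the unadjusted p below 0.05 it added Gstm1 among the members and raised the other pathway genes to 10 higher and 11 lower, where over all tested genes the shares rose to 12.6% and 17.1%. The members at an unadjusted p below 0.05, 3, numbered 2 without a filter, with quantile normalization and with plain moderation, 4 without both libraries numbered 2, and 1 to 3 with single libraries left out. All were higher, and the share of all tested genes higher at that p was 4.37%, 7.44%, 5.82%, 5.29% and 3.38% to 7.59% in this order. With sample weights 2 other pathway genes passed, Mat2a and Atf3 (limma with Benjamini-Hochberg adjusted p = 0.022 and 0.038). Members whose groups did not overlap with ultrasound higher numbered 2 with equal sums, 4 of 10 without a filter, 3 to 5 with single libraries left out and 5 without both libraries numbered 2, while the share of all tested genes, 9.8%, was 7.38%, 7.52%, 11.6 to 17.2% and 20% under these settings. Scaling to equal sums moved the higher share of genes at an unadjusted p below 0.05 from 40.3% to 30.2%. Gpx4 turned to -0.016 with equal sums and -0.031 with quantile normalization, and Slc3a2 to 0.046 with sample weights and 0.053 without both libraries numbered 2. With single libraries left out, differences ran from -0.073 to 0.22 for Gclm, -0.067 to 0.18 for Gss, -0.14 to 0.39 for Gsto1, -0.017 to 0.021 for Gpx4, -0.12 to 0.096 for Slc3a2, -0.033 to 0.17 for Nfe2l2, 0.068 to 0.26 for Slc7a11, 0.021 to 0.12 for Keap1, 0.18 to 0.87 for Maff, -0.42 to -0.096 for Eefsec and -0.41 to -0.06 for Ltc4s. Both ratios kept their direction throughout, from -0.55 to -0.14 for Gclm to Gclc and 0.12 to 0.23 for Slc7a11 to Slc3a2 with single libraries left out. The cause of these shifts was not tested. Unknown depth sets no interval on low values such as those of Mgst1.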
